A study of Mus musculus with 4 samples.

Results

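The cells described here are the epithelial cells that remained in a preparation of the mouse submandibular gland from which epithelium had been removed. A barcode was counted as one of them if it held 500 or more UMIs (unique molecular identifiers, which count captured transcripts), at least 300 genes and at most 15% mitochondrial UMIs. It also had to hold at least 3 UMIs of Krt18, Krt8, Krt7 and Epcam together, none of Ptprc, none of Pecam1 or Cdh5, and fewer than 20 of Col1a1, Col1a2, Col3a1 and Dcn. This gave 934 of 39819 kept cells: 190 came from the ligated library, and mock 1, mock 2 and mock 3 gave 92, 302 and 350.

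All 4 libraries came from female C57BL6/J mice. In the ligated group a metal clip had closed the main ducts of both the submandibular and the sublingual gland for 14 days, and in the mock group the ducts were located in surgery without a clip. The ligated group had 1 library and the mock group had 3, and the protocol says that both glands were harvested although the tissue is labelled submandibular. In every library cells carrying EpCAM or Ter119, surface proteins of epithelium and red blood cells, had been pulled out with magnetic beads in 2 rounds, and dead cells were then removed. The cells below are therefore what the beads left and not a sample of the gland's epithelium. The labels do not say how many mice made up a library or whether the mock libraries came from separate mice, so the spread between them may be partly technical.

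Saliva is made by acini, whose cells release water, enzymes and mucins, and is modified by ducts that take back sodium chloride and add potassium and proteins. In rodents the submandibular gland has granular ducts that store kallikreins, which are serine proteases, and growth factors such as Egf. Myoepithelial cells wrap the acini and contract, basal cells line the larger ducts, and scattered ionocytes carry proton pumps. Closing the excretory duct is a standard injury of this gland, after which acini shrink and duct-like structures remain, and opening the duct again allows acini to return.

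The whole libraries held 29897488 to 80187555 UMIs. By the headers of the matrices, Cell Ranger 6.0.1 made those of the ligated library and of mock 1, and 7.0.0 made those of mock 2 and of mock 3. The gene list of mock 1 was shorter, with 31053 entries, where the ligated list had 32285 and those of mock 2 and mock 3 had 32287. UMIs outside the genes shared by all lists were 0.0538% of mock 1 and 0.449 to 0.456% of each other library. The part of the gene list in the differences below was not tested. Mock 1 stood apart among the mock libraries: the chi-square per degree of freedom of the summed epithelial counts was 8.15 between mock 2 and mock 3 and 21.1 and 32.1 between mock 1 and each of them. Over the same sums the ligated library stood at 9.55, 23.4 and 37.7 from mock 1, 2 and 3. Mock 1 thus lay nearer to the ligated library than to mock 2 or mock 3. In the cells outside clusters 6, 8 and 9, described below, the values between mock libraries were 3.68, 4.75 and 4.46, in the order above. There the ligated library stood at 10.2, 10.3 and 11.7 from mock 1, 2 and 3. In those cells mock 1 had lower values against mock 2 and mock 3 than against the ligated library. Epithelial cells of different libraries shared no barcode with each other.

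The share of epithelial cells among kept cells was 1.43% in the ligated library (exact binomial 95% interval 1.23 to 1.65, counting error only). It was 2.00% in mock 1, 3.27% in mock 2 and 2.76% in mock 3, with a mean of 2.68% ± 0.635 (SD, n = 3). The ligated share lay below every mock share and was 0.534 times their mean, but the smallest exact permutation p that 1 library against 3 allows is 0.25, so no test was made. The order depended on the rule: with at least 5 keratin and Epcam UMIs the ligated share was 0.970%, inside the mock range of 0.784 to 1.56%. The exclusions mattered too. Before them, 380 of 13294 kept ligated cells reached 3 keratin and Epcam UMIs, against 109 of 4589 in mock 1. At that step the ligated share was thus not below every mock share. Of these cells, 135 ligated ones held Ptprc, and 3, 34 and 24 did in mock 1, 2 and 3. With at least 1000 UMIs per cell the ligated share was 0.316 times the mock mean. Because the beads bind EpCAM, a share here counts escape from the beads as well as abundance, and these cannot be told apart.

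The epithelial cells were shallow. Their median was 913 UMIs in the ligated library and 1271.5, 1505 and 1422 UMIs in mock 1, 2 and 3, where endothelial cells of the same libraries, chosen by a like rule, had medians of 3946, 5341, 4004.5 and 3404. Malat1, an RNA that stays in the nucleus, had a UMI in 92.6% of the ligated epithelial cells. In mock 1, 2 and 3 the shares were 44.6, 29.5 and 27.4%, against 98.0 to 100% of endothelial cells. No mitochondrial UMI was seen in 8.95% of the ligated epithelial cells and in 43.5, 45.4 and 54.3% of the mock ones. These marks of cell quality moved with the surgery groups, and their part in the gene differences below was not tested.

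**Figure D1:**
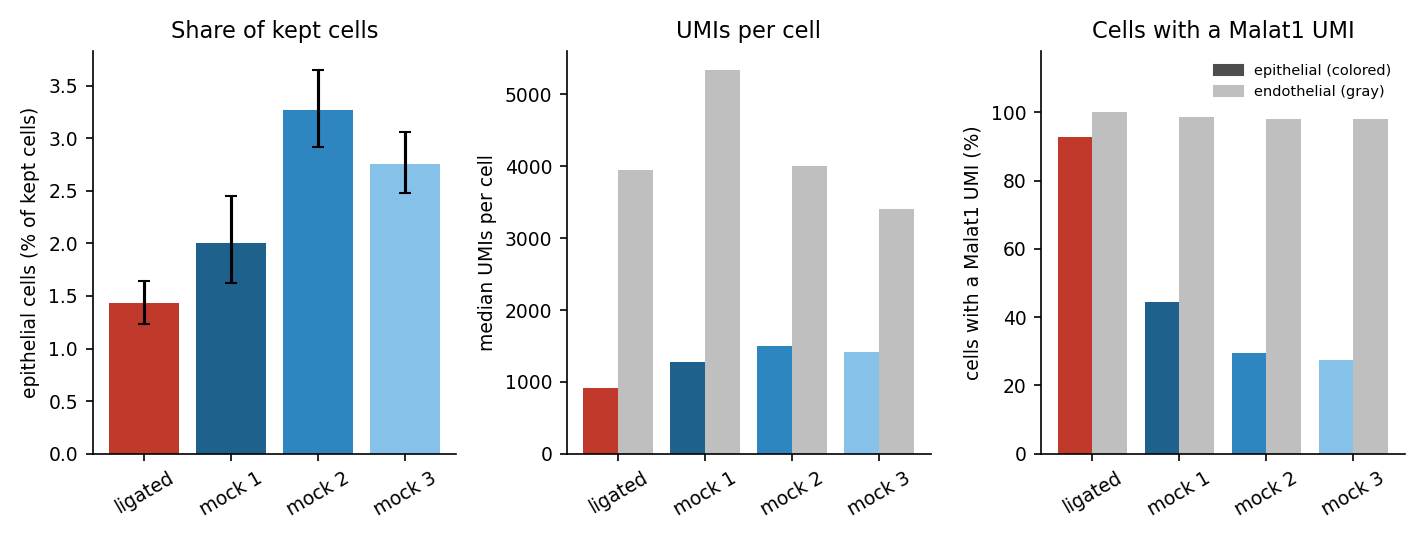
Epithelial cells in the ligated library and in mock 1 to 3. Left, their share of kept cells with the exact 95% interval, 1.43% in the ligated library and 2.00 to 3.27% in the mock libraries. Middle, median UMIs per cell, and right, the percentage of cells with a Malat1 UMI, with epithelial cells as colored bars and endothelial cells as gray bars.

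The name epithelial was checked on 3 markers that the rule did not use. Fxyd2, a regulator of the sodium pump found in ducts, had a UMI in 93.2% of the ligated cells, and in 92.4, 95 and 92.6% of the cells of mock 1, 2 and 3. Klk1, the true tissue kallikrein of granular ducts, was seen in 89.5, 84.8, 90.4 and 88.6% of cells in the same order. Wfdc2, a small secreted protein of ducts, was seen in 61.6, 22.8, 43.0 and 37.1%. In endothelial cells, which should lack these transcripts, Fxyd2 was seen in 7.51 to 20.2%, Klk1 in 7.51 to 41.5% and Wfdc2 in 0.193 to 1.60%, at the greater depth given above. With every cell thinned to 500 UMIs, Fxyd2 was seen in 88.9 to 92.4% of epithelial and 1.19 to 3.88% of endothelial cells. The 7 mesothelial markers, from Msln to Wt1, were at 0 in the epithelial cells of every library, and 4 of 6 tuft cell markers (Trpm5, Avil, Il25 and Gnat3) were at 0 in all libraries too.

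Next to the threshold of 3 keratin and Epcam UMIs, cells with exactly 3 held Fxyd2 in 88.6% of cells in the ligated library and in 93.9 to 97.4% in the mock libraries. Cells with exactly 2, which the rule leaves out, held Fxyd2 in 76.7% and in 80.0 to 89.7%. The genes of the rule itself are given as a description. Summed over all epithelial cells and given as CPM (counts per library size, scaled by the TMM method), Krt18 was at 1691 CPM in the ligated library and at 1336, 1417 and 1585 CPM in mock 1, 2 and 3. Krt7 was at 1583 against 601, 784 and 877 CPM, and Epcam at 539 against 334, 250.1 and 244 CPM. The ligated library held the highest level of Krt18, Krt7 and Epcam. Krt8, at 548 CPM against 555, 330.1 and 399.6 CPM, lay inside the mock range.

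Clustering the 934 cells without the rule's genes gave 9 clusters, described by their leading genes. Cluster 2 (203 cells, led by Klk1b27, Stxbp6 and G0s2) and cluster 7 (36 cells, led by Klk1b26, Klk1b16 and Klk1b22) were duct-like and carried the granular duct kallikreins. Cluster 4 (113 cells) was duct-like and led by Clu, S100a6, Cxcl17 and Ly6a, with Wfdc2 and Cldn7, and also Atp1b1, Mgp, Ccl5 and H2-K1, among its 10 leading genes. That name rests on 7 of 23 duct markers detected, of which 1, Wfdc2, was among the 10. Against the other clusters its mean log2 ratio was -0.05 over the duct markers, 0.56 over the fibroblast markers, 0.50 over those of T, NK or innate lymphoid cells and 0.37 over the endothelial ones. Cluster 5 (55 cells) was ionocyte-like, led by Ascl3, a transcription factor of salivary ionocytes. Cluster 6 (47 cells) was acinar-like and led by Mucl2, a small mucin, and by secretoglobins. Cluster 8 (34 cells) was myoepithelial-like, with Acta2, Tagln and Myh11, the contractile genes, in front. Clusters 1, 3 and 9 stayed unnamed: cluster 1 (299 cells) was led by the mitochondrial enzymes Oxct1 and Acat1, cluster 3 (123 cells) by mitochondrially encoded transcripts, and cluster 9 (24 cells) by haemoglobins and Cd74.

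Klk1 was present across these clusters at different levels, from 3086 CPM in cluster 5 and 24523 CPM in cluster 1 to 67230 CPM in cluster 2, 113655 CPM in cluster 4 and 166936 CPM in cluster 7. The clusters were filled unequally. Cluster 4 held 109 of the 190 ligated cells (57.4%), 4 of 92 in mock 1 and none in mock 2 or mock 3. Cluster 2 held 6 ligated cells (3.16%) against 17, 94 and 86 in the mock libraries (18.5, 31.1 and 24.6%). Cluster 7 held 0 ligated cells and 0 of mock 1, against 16 and 20 in mock 2 and mock 3. With 1 ligated library, a cluster that comes almost entirely from it may be that library and not a cell type. At a finer resolution (1) there were 13 clusters, and the one led by Clu again drew 112 of its 122 cells from the ligated library.

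**Figure D2:**
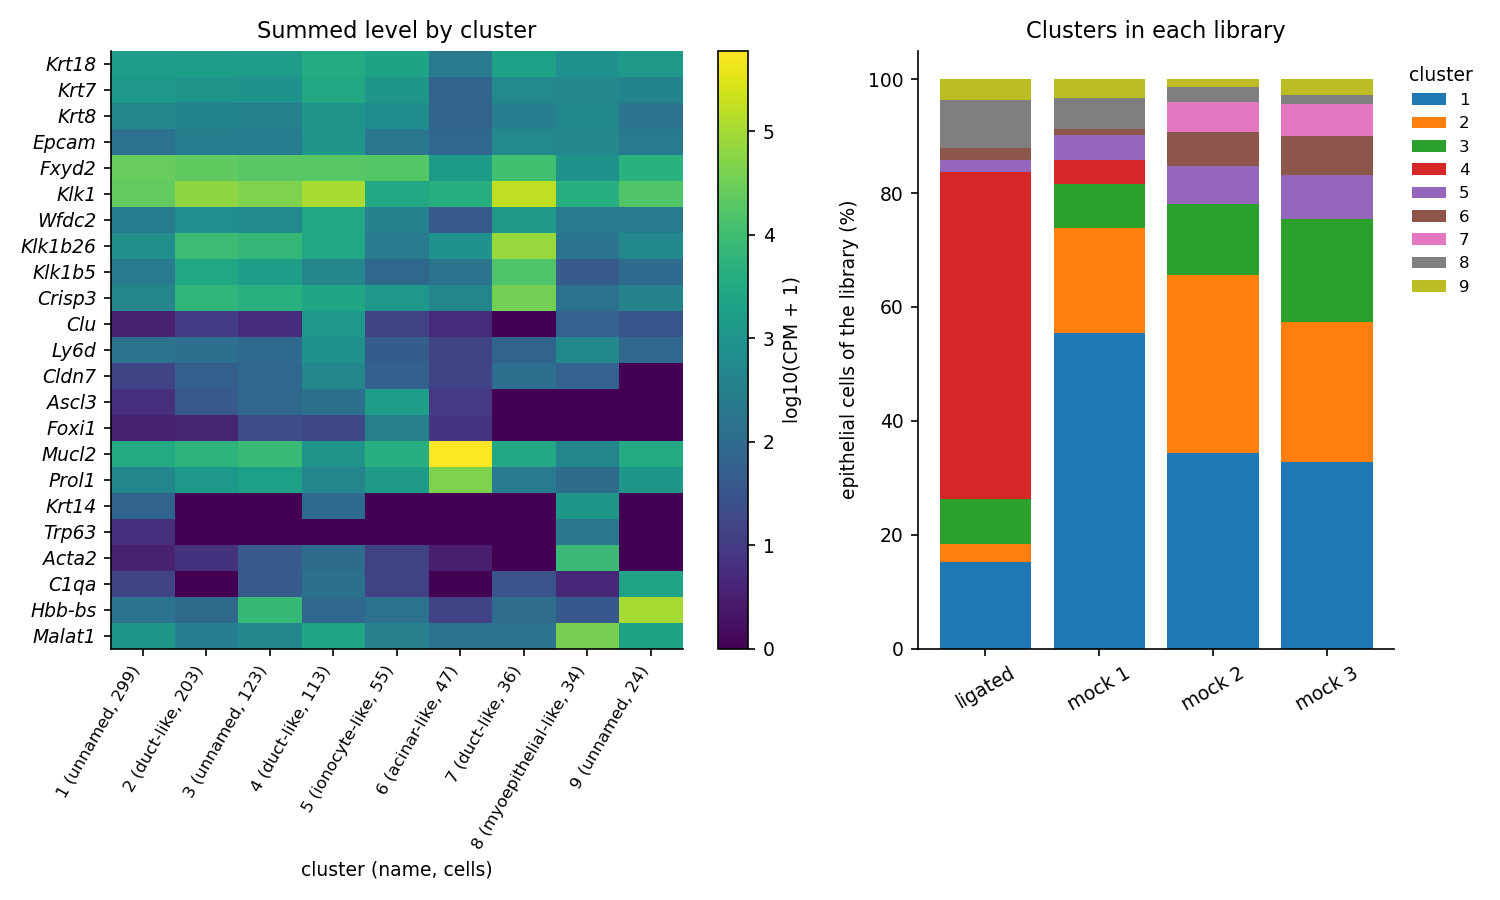
Left, summed level of 23 genes in the 9 clusters as log10(CPM + 1), with the name and number of cells of each cluster on the x axis. Right, the percentage of each library's epithelial cells in each cluster. Cluster 4 holds 57.4% of the ligated cells and 4.35, 0 and 0% of those in mock 1, 2 and 3.

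Depth was uneven among the cells: cluster 6 had a median of 5988 UMIs and cluster 8 of 6825.5, so these clusters held 23.3% and 13.9% of all epithelial UMIs. A library's sum is then steered by how many acinar-like and myoepithelial-like cells it happened to keep. For this reason clusters 6 and 8 were left out in a further test. Cluster 9 was left out with them because haemoglobins and macrophage or dendritic markers were among its leading genes. This leaves 163, 83, 272 and 311 cells. In another test every cell was thinned to 500 UMIs. Both of these tests were chosen after seeing the data, and the clusters come from the same counts.

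Over all epithelial cells, 3 genes were higher after ligation and none was lower among 6785 tested by edgeR's quasi-likelihood test at an adjusted p of 0.05. These calls are 0.0442% and 0% of the genes tested, and 658 genes had an unadjusted p under 0.05. DESeq2 called 13 higher and 5 lower. Apod, a secreted lipid carrier (chr16:31296192-31314808), was at 587 CPM in the ligated library and at 7.03, 1.70 and 3.37 CPM in mock 1, 2 and 3. It rose by 7.28 on the log2 scale (SE 0.52, edgeR adjusted p = 0.00783), and 45.1% of its ligated UMIs lay in 1 of the 23 cells that had any. Mgp, the matrix Gla protein that keeps soft tissue from calcifying (chr6:136872435-136875823), was at 431 CPM against 14.1, 6.81 and 3.37 CPM. It rose by 5.87 (SE 0.53, edgeR adjusted p = 0.0212) and was spread over 99 ligated cells. Rgs1, a brake on G protein signals in leukocytes, was at 148 CPM against 0, 3.40 and 1.69 CPM (log2 difference 6.02, SE 0.63, edgeR adjusted p = 0.0404), with 76.9% of the ligated UMIs in 1 cell.

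Other cells of the ligated library held more of each of these 3 transcripts. Fibroblasts were at 5148 CPM of Apod and 31618 CPM of Mgp, and leukocytes at 919 CPM of Rgs1. In endothelial cells of the ligated library Mgp was at 504 CPM, close to the epithelial level. Of the 6785 genes tested, 38.5% had their highest level in the epithelial cells among the 4 cell classes compared, in the surgery group where they stood higher, and none of the 3 called genes was among them. Whether Apod, Mgp and Rgs1 were made in the epithelial cells or came from free RNA or attached cells was not tested.

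In the cells outside clusters 6, 8 and 9, edgeR called 167 genes higher (3.54% of 4721 tested) and 31 lower (0.657%). By levels in these same cells, 57 of the higher and 21 of the lower genes stood highest in the epithelial cells among the 4 classes, as did 53.5% of all genes tested there. With every cell thinned to 500 UMIs, 70 genes were higher and 7 lower of 2462 tested, and 74 of these 77 were also called in the same direction without clusters 6, 8 and 9. The calls depended on the mock libraries: over all epithelial cells, edgeR called 0 genes higher without mock 1 (1649 at an unadjusted p under 0.05 in either direction), 54 without mock 2 and 61 without mock 3. The epithelial values below are TMM-scaled CPM without clusters 6, 8 and 9 unless all epithelial cells are named, and so are the calls. Values of the other cell classes are plain CPM. Of the genes named, Apod, Mgp and Rgs1 alone passed over all epithelial cells.

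Clu, which encodes the secreted chaperone clusterin, had the smallest adjusted p of these genes (chr14:65968483-65981547). It was at 899 CPM in the ligated library and at 8.04, 2.39 and 2.29 CPM in mock 1, 2 and 3. The ligated library stood above all 3 mock libraries, as it did for 32.2% of all genes tested there, and Clu rose by 8.0 on the log2 scale (SE 0.39, edgeR adjusted p = 3.35e-07). Over all epithelial cells the difference was 5.25 and did not pass (edgeR adjusted p = 0.121). Clu UMIs lay in 55 ligated cells (28.9%), 14.6% of them in the highest cell, and in 5.43, 0.662 and 0.571% of mock cells. With every cell thinned to 500 UMIs, Clu was seen in 18.9% of ligated cells (exact interval 13.6 to 25.3) and in none of the 92, 302 and 350 mock cells, which allows shares of up to 3.26, 0.993 and 0.857%. Endothelial cells express Clu too: it was seen in 34.2% of them in the ligated library and 19.8 to 35.4% in the mock libraries at their own greater depth, and in 9.39% and 3.57 to 6.28% when thinned alike.

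Ly6d, a surface protein of the Ly6 family (chr15:74762056-74763620), was at 642 CPM after ligation and at 153, 93.1 and 158 CPM in the mock libraries. It rose by 2.28 (SE 0.30, edgeR adjusted p = 0.000893). Endothelial cells were nearly free of it, at 1.21 CPM in the ligated library. Tnfrsf12a, the receptor of the injury cytokine TWEAK, was at 116 CPM against 8.04, 4.77 and 11.4 CPM and rose by 3.76 (SE 0.66, edgeR adjusted p = 0.00635). Cdkn1a, the cell cycle inhibitor p21, was at 177 CPM against 0, 0 and 11.4 CPM and rose by 5.01 (SE 0.73, edgeR adjusted p = 0.00168), with 50.0% of its ligated UMIs, over all epithelial cells, in 1 of 8 cells. Anxa2, a membrane-binding annexin, was at 441 CPM against 137, 103 and 77.8 CPM.

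The list of injury and regeneration genes held 15 tested members over all epithelial cells. The ligated library lay above the mock range for 11 of them and below it for 1, where 29.2% and 29.0% of all tested genes lay above and below. None passed the test over all epithelial cells. In the cells outside clusters 6, 8 and 9, 8 of 11 tested members rose and none fell, with a median log2 difference of 2.37 beside -0.06 for all genes. Of all genes tested in those cells, 3.54% rose and 0.657% fell. These shares of all tested genes, above, below, risen and fallen, are the background for every list below. The 8 members that rose were Atf3, S100a6, Anxa2, Clu, Ly6d, Ly6a, Tnfrsf12a and Cdkn1a. S100a6, a calcium-binding protein, was at 4681 CPM against 121, 136 and 227 CPM, but fibroblasts of the ligated library held 4938 CPM of it. Anxa2 and Ly6a too stood as high or higher in other cells of that library. Anxa2 was at 629.9 CPM in fibroblasts and 439 CPM in endothelial cells, and Ly6a, at 967 CPM in the epithelial cells, was at 3195 CPM in endothelial cells.

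Some duct genes of ion transport and of cell contacts rose, and the most abundant of them did not. Atp1b1, the beta subunit of the sodium pump, was at 2209 CPM against 402, 327 and 299.9 CPM and rose by 2.70 (SE 0.24, edgeR adjusted p = 7.41e-05). Fxyd3, another regulator of that pump, was at 343 CPM against 88.4, 105 and 151 CPM and rose by 1.5 (SE 0.32, edgeR adjusted p = 0.0183). Fxyd2 (chr9:45399669-45410278) did not follow: at 20393 CPM against 27684, 25332 and 25328 CPM it was 0.36 lower on the log2 scale (SE 0.12, edgeR adjusted p = 0.128). The tight junction genes Cldn3 and Cldn7 were at 299.8 and 349 CPM in the ligated library. In the mock libraries Cldn3 lay between 50.4 and 59.7 CPM and Cldn7 between 48.2 and 59.7 CPM. They rose by 2.43 and 2.63 (edgeR adjusted p = 0.000772 and 0.000347).

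Wfdc2 (chr2:164562413-164568510) was at 2307 CPM against 297, 597 and 598 CPM and rose by 2.18 (SE 0.31, edgeR adjusted p = 0.00138). Its share of cells, thinned to 500 UMIs, was 48.4% in the ligated library and 14.1, 19.9 and 18.9% in the mock libraries, against at most 0.134% of endothelial cells. Scnn1a, the alpha subunit of the epithelial sodium channel, was at 97.9 CPM against 24.1, 9.55 and 25.2 CPM and just missed the threshold (log2 difference 2.38, edgeR adjusted p = 0.0507). Over all epithelial cells the duct ion transport list had 16 tested members, of which 4 stood above and 5 below the mock values. Their median log2 difference was -0.65, and none passed. Outside clusters 6, 8 and 9 it had 9, of which 2 rose and none fell, with a median of 1.30. For the list of duct secreted and identity genes the medians were -0.06 over 16 members and 1.12 over 13, of which 3 rose (Wfdc2, Cldn3 and Cldn7) and none fell. The medians of both lists thus changed sign between these choices of cells. Tfcp2l1, a transcription factor of ducts, was at 630.2 CPM against 2002, 979 and 1074 CPM and did not pass (log2 difference -1.09, edgeR adjusted p = 0.159).

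**Figure D3:**
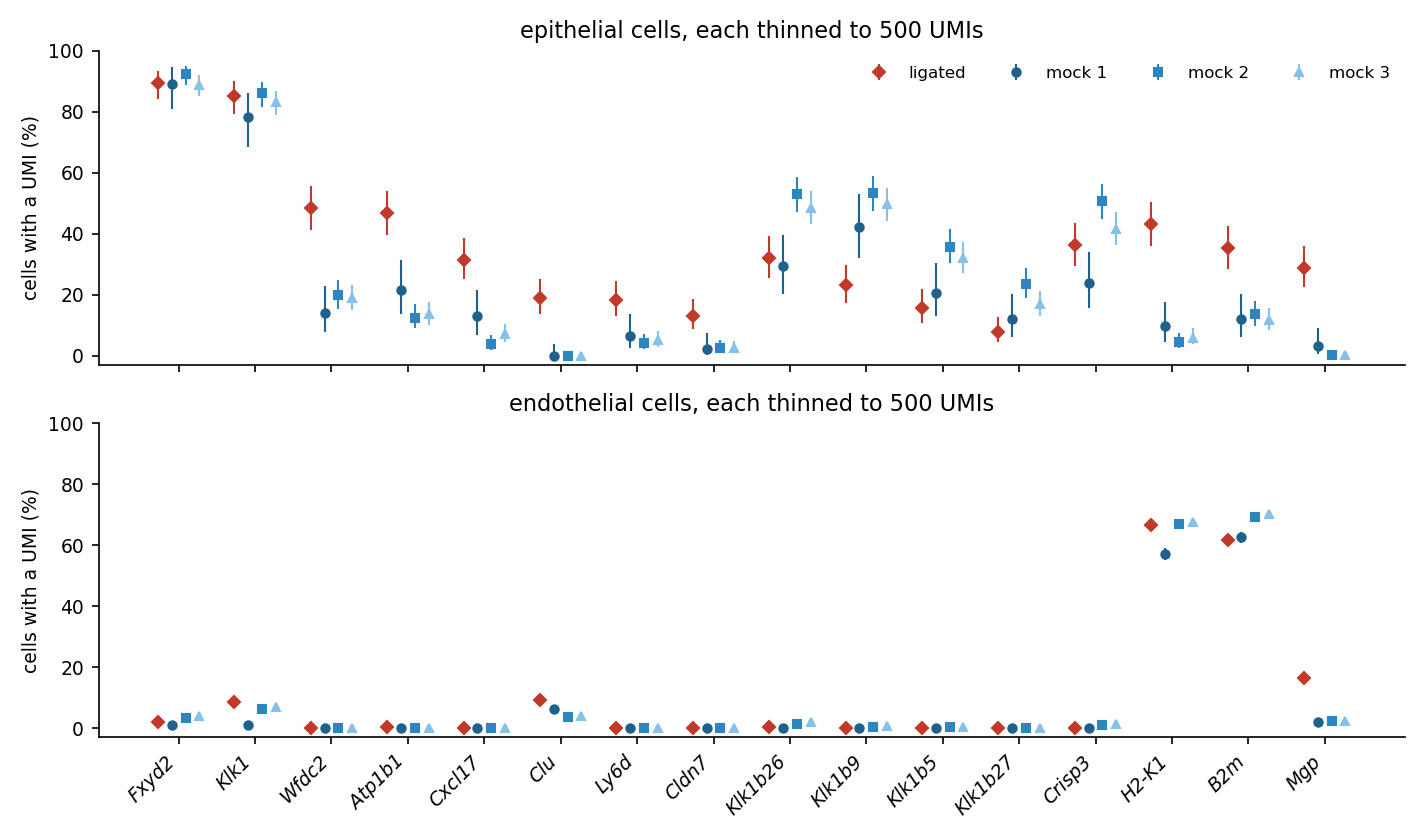
Percentage of cells with at least 1 UMI of each gene, with every cell thinned to 500 UMIs, in epithelial cells (top) and endothelial cells (bottom) of the 4 libraries. Bars are exact 95% intervals. Wfdc2, Atp1b1, Cxcl17, Clu and Ly6d were seen in more epithelial cells of the ligated library than of each mock library, and Klk1b9 in fewer, at 23.2% against 42.4, 53.3 and 49.7%.

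The kallikreins of the granular duct did not move as 1 group. Klk1 (chr7:44225360-44229618) was at 96796 CPM in the ligated library and at 28198, 58253 and 55627 CPM in the mock libraries. It rose by 1.03 (SE 0.26, edgeR adjusted p = 0.0453), with mock 1 the lowest of the 4. Klk1b9 (chr7:43976061-43980376) was at 789 CPM against 1334, 4208 and 4572 CPM and fell by 2.10 (SE 0.54, edgeR adjusted p = 0.0484). The other Klk1b genes named here stood low in both the ligated library and mock 1. Klk1b26 was at 2258 CPM after ligation and at 2034 CPM in mock 1, against 10849.7 and 12330.0 CPM in mock 2 and mock 3. Klk1b5 was at 441 and 394 CPM against 2967 and 2811 CPM, and neither gene passed (edgeR adjusted p = 0.17 and 0.163). Crisp3, a secreted protein of granular ducts, showed the same order, at 2013 and 1567 CPM against 6730.4 and 6969 CPM.

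Of the 17 tested members of the list of granular duct kallikreins and growth factors, 1 lay above and 4 below the mock range over all epithelial cells, and none passed. Their median log2 difference was -1.88 over the 3 mock libraries and 0.33 when the ligated library was set against mock 1 alone. Of the same 17 outside clusters 6, 8 and 9, 1 rose (Klk1), 1 fell (Klk1b9) and the median was -1.54. Egf, the epidermal growth factor, had a UMI in 3, 0, 14 and 11 epithelial cells of the ligated library and mock 1, 2 and 3. The Klk1 family genes share 81.4 to 94.2% of their transcript sequence over 91 pairs, so reads could be split between them and single members are uncertain.

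**Figure D4:**
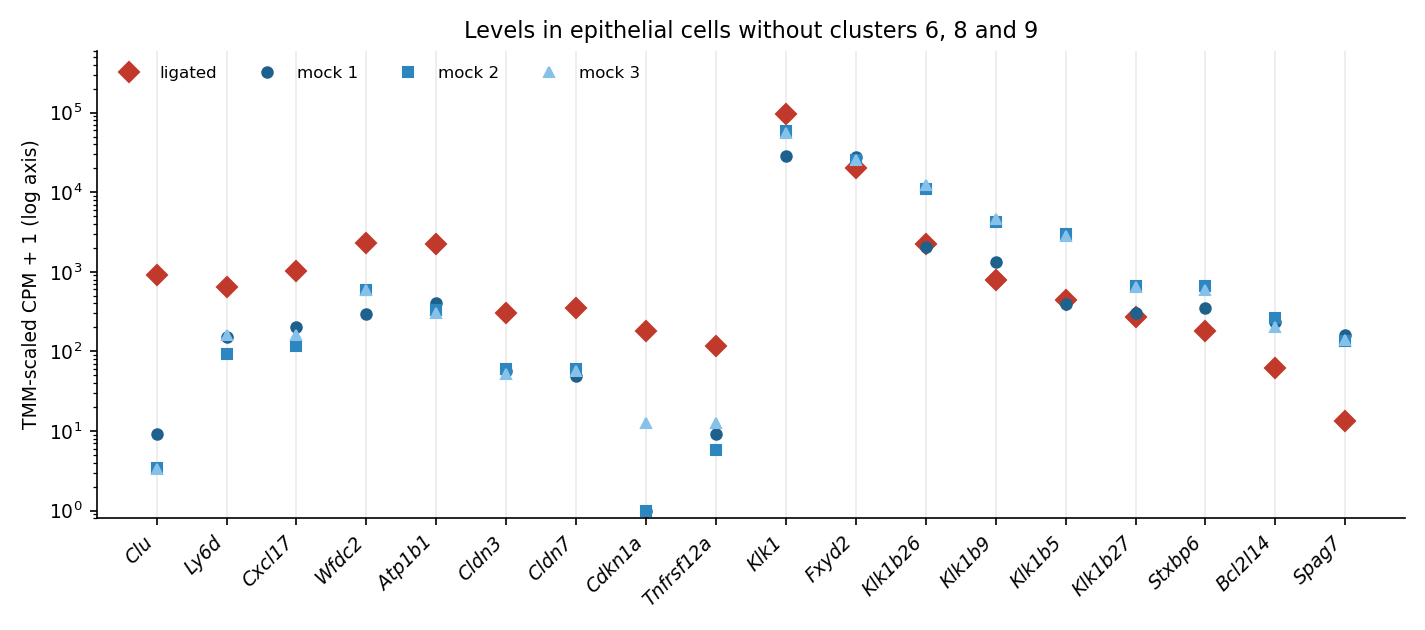
Level of 18 genes in the epithelial cells without clusters 6, 8 and 9, as TMM-scaled CPM + 1 on a log axis, with 1 point per library. Clu, Cxcl17, Wfdc2, Atp1b1 and the claudins stand higher in the ligated library than in each mock library, and for Klk1b26 and Klk1b5 the ligated library and mock 1 lie together below mock 2 and mock 3. The Cdkn1a points of mock 1 and mock 2 are both at 0 CPM and overlap.

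The products of acini rested on few cells. Mucl2, over all epithelial cells, was at 14256 CPM in the ligated library and 10049.5 CPM in mock 1, against 167225 and 320061 CPM in mock 2 and mock 3. The ligated library lay within the mock range, and 1 cell held 90.6% of its Mucl2 UMIs there and 92.6% in mock 1. Of endothelial cells, which do not make Mucl2, 72.1, 67.6, 98.5 and 96.0% had a Mucl2 UMI in the ligated library and mock 1, 2 and 3, against 65.8, 64.1, 98.7 and 98.3% of epithelial cells, at the unequal depths given above. With every cell thinned to 500 UMIs the shares were 17.2, 14.2, 48.7 and 48.5% of endothelial and 44.7, 37, 84.1 and 80% of epithelial cells. Prol1, an acinar proline-rich protein, also lay within the mock range over all epithelial cells, at 3026 CPM against 1012, 14957 and 22968 CPM. Neither gene passed the test (edgeR adjusted p = 0.576 and 0.658). With a term for the software version their log2 differences turned positive, to 0.50 and 1.58.

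Dcpp1, Dcpp2 and Dcpp3, the demilune cell and parotid proteins, are secreted products of neighbouring genes on chromosome 17. Over all epithelial cells, Dcpp2 (chr17:23880880-23900788) had no UMI in the ligated library and was at 2541, 1984 and 7759.9 CPM in mock 1, 2 and 3. That made it at least 479-fold lower than the mock mean, against a floor of 3 counts in the ligated library (8.56 CPM), and at least 264-fold lower without mock 3. Dcpp1 had no UMI in the ligated library either and was at 478, 1160.5 and 7067 CPM in the mock libraries, which is at least 339-fold lower than their mean and at least 95.8-fold lower without mock 3. Dcpp3 was at 5.70 CPM against 4141, 2534 and 10680.4 CPM. However, 1 cell held 99.9% of the Dcpp2 UMIs in mock 1, 97.3% in mock 2 and 46.7% in mock 3, and 2, 15 and 12 cells had any. For Dcpp1 those shares were 100.0, 98.2 and 54.3%, in 1, 8 and 10 cells. None of the 3 passed over all epithelial cells (edgeR adjusted p = 0.271, 0.121 and 0.121 for Dcpp1, Dcpp2 and Dcpp3). All 3 were called lower without clusters 6, 8 and 9 (edgeR adjusted p = 0.00637, 0.00012 and 0.000171). The count of 0 for Dcpp2 in the 190 ligated cells allows a share of cells of up to 1.58%. The mock shares were 2.17, 4.97 and 3.43%, with 1.03 to 3.49% of endothelial cells, at the unequal depths given above. With every cell thinned to 500 UMIs the ligated count was again 0. The mock shares were then 1.09, 1.99 and 2%, so that of mock 1 lay below the 1.58% that a count of 0 allows. The transcripts of the 3 genes are 94.5 to 96.9% identical, so reads cannot be assigned firmly to one of them.

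Of 10 tested acinar secretory products, 5 lay below the mock range over all epithelial cells and none above, none passed, and the median log2 difference was -3.10 with genes at 0 set to their bound. Among 8 tested outside clusters 6, 8 and 9, 4 fell: Bpifa2, Dcpp1, Dcpp2 and Dcpp3. Bpifa2, a secreted lipid-binding protein, was at 6.12 CPM against 643, 146 and 968 CPM, with 51.0 to 100.0% of its UMIs in 1 cell of each library over all epithelial cells.

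Some of the largest differences over all epithelial cells belonged to genes held by a handful of cells. Sprr1a, a cornified envelope protein, was at 85.6 CPM in the ligated library and at 0 in every mock library, from 3 cells with 86.7% of the UMIs in 1. Lcn2, an iron-binding protein of injured epithelium, was at 317 CPM against 28.1, 13.6 and 30.4 CPM, from 12 cells with 67.6% in 1. Cxcl10, an interferon-induced chemokine, was at 123 CPM against 0, 6.81 and 3.37 CPM, from 7 cells with 72.1% in 1. Fst, which encodes the activin inhibitor follistatin, was at 145 CPM against 28.1, 22.1 and 18.5 CPM, from 8 cells. None of these 4 passed (edgeR adjusted p = 0.121, 0.0721, 0.116 and 0.121).

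Some lower genes were spread over more cells. Unc13b, a vesicle priming factor, was at 6.12 CPM against 113, 105 and 80.1 CPM and fell by 3.88 (SE 0.82, edgeR adjusted p = 0.0185). Stxbp6, which binds the membrane fusion machinery, was at 177 CPM against 354, 668 and 591 CPM and fell by 1.62 (SE 0.40, edgeR adjusted p = 0.0388). Bcl2l14, a member of the Bcl2 family, was at 61.2 CPM against 233, 263 and 201 CPM and fell by 1.92 (SE 0.40, edgeR adjusted p = 0.018). Spag7 was at 12.2 CPM against 161, 136 and 139.6 CPM and fell by 3.49 (SE 0.60, edgeR adjusted p = 0.00567), and it was also lower in endothelial cells, at 23.7 against a mean of 73.9 CPM. For each of these 4 the ligated library lay below all 3 mock libraries, as it did for 33.2% of all genes tested in these cells.

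Cxcl17, a chemokine of mucosal epithelium (chr7:25400053-25412886), was at 1028 CPM after ligation and at 201, 115 and 158 CPM in the mock libraries. It rose by 2.76 (SE 0.29, edgeR adjusted p = 0.000192), and endothelial cells held 2.37 CPM in the ligated library. Icam1, an adhesion molecule for leukocytes, was at 79.5 CPM against 0, 4.77 and 4.58 CPM and rose by 4.16 (SE 0.92, edgeR adjusted p = 0.0245). Ccl5, a T cell chemokine, was at 532 CPM against 80.4, 21.5 and 13.7 CPM and rose by 4.30 (SE 0.46, edgeR adjusted p = 0.000208), but leukocytes of the ligated library held 6013 CPM of it. Of 12 tested chemokines and cytokines, 9 lay above and none below the mock range over all epithelial cells. Of all tested genes, 29.2% lay above and 29.0% below. In the cells outside clusters 6, 8 and 9, 3 of 6 rose, beside 3.54% of all genes tested there: Cxcl17, Ccl5 and Cxcl14. Cxcl14 was at 196 CPM in the ligated epithelial cells and at 7359 CPM in fibroblasts of that library.

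The class I genes present peptides to T cells, and none of the 13 tested over all epithelial cells stood highest in them among the 4 classes. H2-K1 was at 1211 CPM against 161, 146 and 124 CPM and rose by 3.10 (SE 0.25, edgeR adjusted p = 3.53e-05). B2m, the shared light chain, was at 979 CPM against 273, 317 and 314 CPM and rose by 1.69 (SE 0.25, edgeR adjusted p = 0.00166). In all, 5 of 9 class I genes and 3 of 5 class II genes (Ctss, H2-Ab1 and Cd74) rose without clusters 6, 8 and 9. In thinned endothelial cells H2-K1 was seen in 66.7% of ligated cells and in 57.1, 67.1 and 67.5% of mock cells, against 43.2% and 9.78, 4.64 and 6.0% of epithelial cells. Of 24 tested interferon-stimulated genes, 21 lay above and 1 below the mock range over all epithelial cells, and none passed. Of all tested genes, 29.2% lay above and 29.0% below. Single cells weighed on this list: Ifit3, a member above the range, had 60% of its ligated UMIs in 1 of 8 cells. None of the 16 tested outside clusters 6, 8 and 9 passed either, and their median was 0.44.

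Among basal duct genes, 9 of 13 lay above the mock range and none below, where 29.2% and 29.0% of all tested genes did. The same shares stand beside the ionocyte and oxidative phosphorylation counts below. Krt14, a keratin of basal and myoepithelial cells, was at 573 CPM over all epithelial cells against 183, 78.3 and 129.8 CPM and did not pass (log2 difference 2.15, edgeR adjusted p = 0.256). In the cells outside clusters 6, 8 and 9, 4 members were tested, 3 lay above the range, none passed and the median was 0.95. The plain CPM of 10 basal duct markers summed to 1656 against 906, 316 and 338 over all epithelial cells and to 410 against 188, 255 and 301 outside those clusters. Cluster 8, the myoepithelial-like one, held 8.42% of the ligated cells and 5.43, 2.65 and 1.43% of those in mock 1, 2 and 3, and its part in the basal duct values was not tested. Of 4 ionocyte genes 3 lay below the mock range: Ascl3, which lay inside it at 59.9 CPM against 31.6, 93.6 and 180.4 CPM, was the exception. Foxi1, the other ionocyte transcription factor, was at 5.70 CPM against 21.1, 18.7 and 32.0 CPM. Of 24 oxidative phosphorylation genes 16 lay below the range and 1 above. Their median log2 difference was -0.54, and -0.17 without clusters 6, 8 and 9. Among 17 genes of the endoplasmic reticulum, 4 of the 15 tested without clusters 6, 8 and 9 rose (Hspa5, Pdia3, Calr and Hsp90b1). Hspa5, the chaperone BiP, was at 153 CPM against 16.1, 31.0 and 25.2 CPM (log2 difference 2.52, edgeR adjusted p = 0.00637), while endothelial cells of the ligated library held 325 CPM.

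Over all epithelial cells 29.2% of all tested genes lay above the mock range and 29.0% below. Without clusters 6, 8 and 9, 3.54% of all tested genes rose and 0.657% fell. Of the remaining lists, 10 of 14 signals to stroma and vessels lay above the mock range and 2 below. In the list of mesenchymal transition, 9 of 11 genes lay above and none below. Vim and Sparc of the latter list rose without clusters 6, 8 and 9. Both stood far higher in other cells of the ligated library: Vim was at 110 CPM against 1451 CPM in fibroblasts, and Sparc at 171 CPM against 7211 CPM in fibroblasts and 2789 CPM in endothelial cells. Immediate early genes, which dissociation can induce, had 2 of 18 above and 1 below the range over all epithelial cells. Outside clusters 6, 8 and 9, 5 of 14 rose (Atf3, Junb, Fos, Klf6 and Egr1), with a median of 1.47. All of these but Atf3 stood higher in other cells of the ligated library. Fos was at 337 CPM against 613 CPM in endothelial cells, and Egr1 at 104 against 168 CPM. Junb was at 251 CPM against 656 CPM in leukocytes, and Klf6 at 122 against 203 CPM. In the apoptosis and p53 list 7 of 12 lay above and 2 below, and 1 of 8 rose without clusters 6, 8 and 9 (Cdkn1a). The other lists are 11 genes of acinar fluid secretion (2 above, 5 below), 9 myoepithelial genes (0 and 1), 2 tuft genes (1 and 0), 21 junction genes (5 and 7), 15 glutathione genes (2 and 6) and 8 cell cycle genes (0 and 0). No member of any list passed over all epithelial cells.

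**Figure D5:**
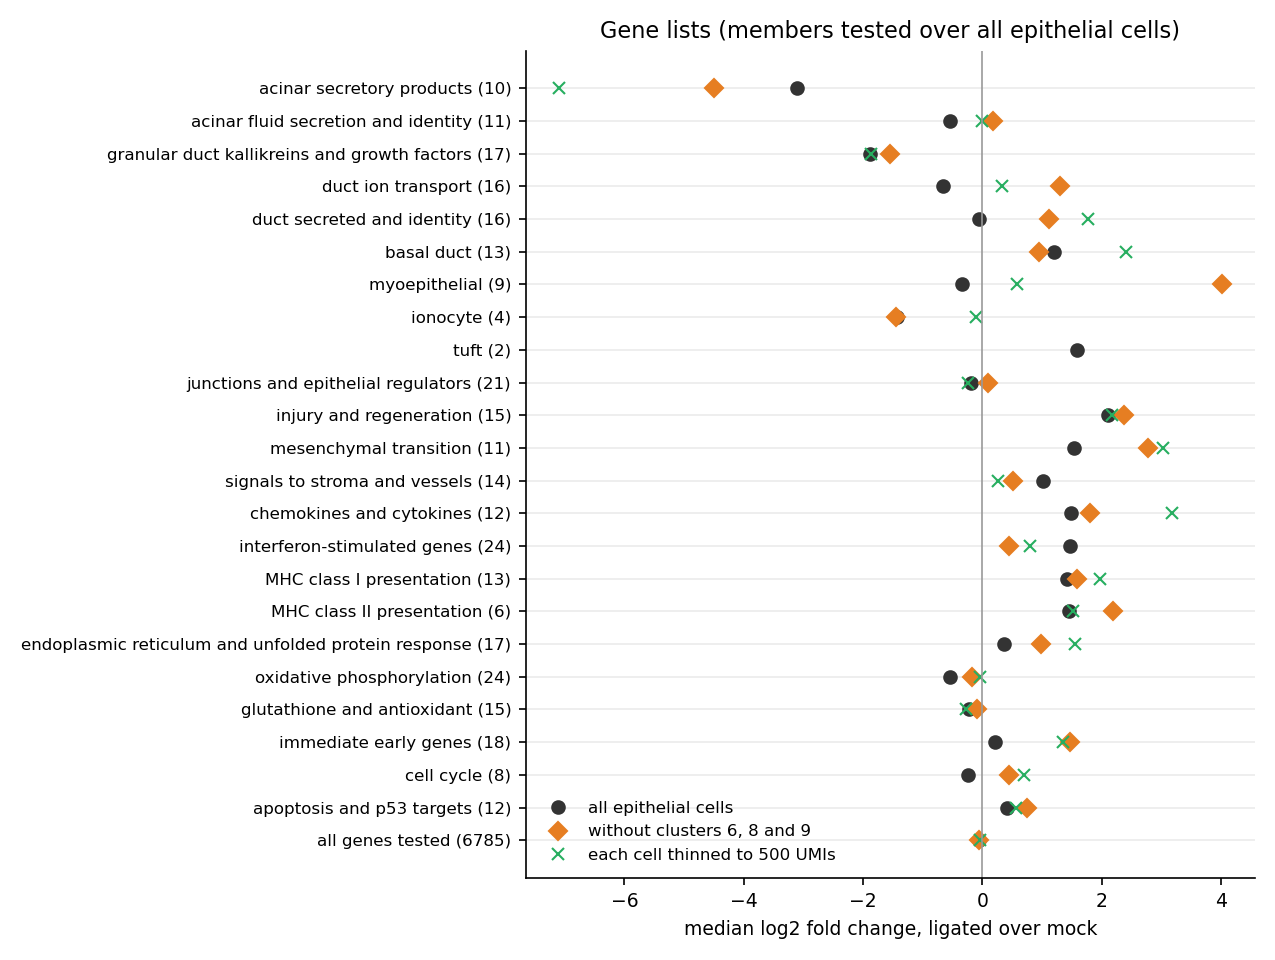
Median log2 fold change, ligated over mock, of each gene list over all epithelial cells (circles), without clusters 6, 8 and 9 (diamonds) and with every cell thinned to 500 UMIs (crosses), with the number of members tested over all epithelial cells in brackets. In the first and second, genes at 0 in a group are set to their bound. The cross of the acinar secretory products rests on fitted values of genes at 0 and is no bound. All genes tested have medians of -0.05, -0.06 and -0.03.

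Markers of several other cell types also moved with the surgery groups. Summed as plain CPM over all epithelial cells, 10 macrophage or dendritic markers were at 1555 CPM in the ligated library and at 35.0, 75.1 and 299 CPM in mock 1, 2 and 3, with 8 of 10 seen in the ligated library. Outside clusters 6, 8 and 9 the sums were 583 CPM and 57.1, 35.2 and 65.1 CPM. The 12 markers of T, NK or innate lymphoid cells were at 391 against 21.9, 16.2 and 99.0 CPM, and 6 fibroblast markers that the rule did not use at 147 against 13.1, 16.2 and 11.6 CPM. The 10 endothelial markers that the rule did not use were at 371 against 249, 130 and 80.4 CPM, where endothelial cells held 14221 to 18735 CPM, and Cldn5 was at 0 in all libraries but mock 1. These markers stood higher in the ligated library beside the MHC, Ccl5, Cxcl14, Mgp, Apod, Vim, Sparc, Ly6a, Anxa2 and S100a6 differences, and their part in them was not tested. The erythroid markers lay inside the mock range, at 518 CPM against 284, 3717 and 11646 CPM. So did the mural markers, at 662 CPM against 1260, 344 and 246 CPM.

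The difference between ligated and mock libraries was compared between epithelial and endothelial cells of the same libraries with a class by surgery term and a term for each library. Of 14190 genes tested by edgeR, 16 had a more positive difference in the epithelial cells (0.113%) and 4 a more negative one (0.0282%). Clu was among the 16: its difference was 4.51 higher on the log2 scale than in endothelial cells (edgeR adjusted p = 0.00452), where it was at 216 CPM against 149, 100.4 and 115 CPM. Cdkn1a stood 5.40 higher (edgeR adjusted p = 0.00504), where endothelial cells were at 80.7 CPM in the ligated library and at 436, 96.9 and 95.9 CPM in mock 1, 2 and 3. Icam1 stood 4.17 higher (edgeR adjusted p = 0.00528). Mgp was 3.91 higher (edgeR adjusted p = 0.00504). Nupr1, a stress-induced chromatin protein, was at 422 CPM against 1237, 949 and 1749 CPM over all epithelial cells, and its difference was 2.91 lower than in endothelial cells (edgeR adjusted p = 0.0176). For Wfdc2, Cxcl17, Atp1b1 and Ly6d the class by surgery term did not pass over all epithelial cells (edgeR adjusted p = 0.787 to 1). At far lower levels, endothelial cells of the ligated library also held more of these 4, at 3.59, 2.37, 6.25 and 1.21 CPM against mock means of 1.23, 0.57, 3.56 and 0.385 CPM. Without mock 1, edgeR called 0 genes, with 1850 at an unadjusted p under 0.05.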

How the data were processed

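Droplet libraries (10x Genomics) of EpCAM- and Ter119-depleted gland cells were deposited as counts: each library has a matrix of UMIs by gene and barcode, not normalized. The submitters' processing notes name Cell Ranger 7.0.1 and mm10. Per the file headers, the versions were 6.0.1 (ligated, mock 1) and 7.0.0 (mock 2, mock 3). The sources used here do not state whether introns were counted. The 30406 gene IDs in all 4 feature lists were used.

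The members, lists and rules were chosen with earlier results of these data known. Counts of the epithelial cells were summed per library and tested with edgeR 4.0.16 (R 4.3.3): quasi-likelihood F test, TMM, filterByExpr, Benjamini-Hochberg adjustment at 0.05 over all genes, 2 residual degrees of freedom, all from the mock libraries, and the ligated library assumed to vary like them. CPM are scaled by the TMM library size unless called plain. Member sums were 228537 to 858590 UMIs. Doublets were not removed, and removing the highest Scrublet scores (0.8% per 1000 barcodes) was an alternative. Other alternatives were DESeq2 1.42.0, RLE size factors, no filter, each mock library left out, the Cell Ranger version as a term, mock 2 and 3 summed, and stricter rules. Cells were clustered with scanpy 1.11.5 and leidenalg 0.10.2 (1500 variable genes, 20 components, 15 neighbours, resolution 0.5). A cluster took the name of a class with at least 3 markers in 25% of its cells and any marker among its 10 leading genes. Every other class that shared no marker with that class had to have fewer among the 10.

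Named genes are the given markers, the 12 up and 12 down with the largest change among tested genes that stood highest in epithelial cells, at least 50 CPM and outside the mock range (filled by unadjusted p where none passed), up to 5 per list and 5 per cluster. Beyond these, Rgs1, Apod, Mgp, S100a6, H2-K1, B2m, Ccl5, Hspa5, Anxa2, Nupr1, Mucl2, Stxbp6, Scnn1a, Ly6a, Cxcl14, Vim and Sparc, where the rule did not take them, were chosen after their values were seen. Nor did the rule take Tnfrsf12a, Cldn3, Fxyd3, Crisp3, Egf, Junb, Klf6 and Egr1, which were also chosen with their values known. Gene positions are from GENCODE for GRCm38. On counts simulated for the ligated against mock comparison (6457 genes tested), 46 of 99 genes changed 4-fold and 100 of 100 changed 16-fold were recovered, with 7 false calls. The simulation gave every gene the same dispersion around a mean common to the libraries. Its recovery therefore does not describe genes that varied more between the real libraries, among them those whose UMIs lay mostly in single cells. Over all epithelial cells Clu rose by more than 16-fold, was spread over 55 ligated cells and did not pass. Intervals and floors cover counting error only.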

Additional observations from a re-analysis of the deposited data

Results flagged for a closer look

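For 20 genes the ligated against mock difference in epithelial cells differed from that in endothelial cells by edgeR's class by surgery term (adjusted p under 0.05). The difference in log2 fold change, epithelial minus endothelial, was -15.69 for Dcpp2, -15.93 for Dcpp1 and -6.99 for Dcpp3, where the first pair had no UMI in the ligated epithelial cells and 1 cell held most of the UMIs in mock 1 and mock 2. It was 11.71 for Tnfrsf10b and 11.29 for Sdc3, which had no UMI in the mock epithelial cells, so that these fitted values are no bound. Tnfrsf10b, a death receptor, came from 1 ligated cell with 8 UMIs.

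Clu at 4.51, Mgp at 3.91, Icam1 at 4.17, Rnd3 at 3.52, Ppp1r18 at 4.39, Gpx8 at 2.93, Slc6a6 at 2.83 and Tnfsf10 at 4.35 were spread over 10 to 99 ligated cells, with at most 30% of their UMIs in 1 cell. Cdkn1a at 5.40, Ifit3 at 4.13, Iigp1 at 3.97, Gadd45b at 3.49, Itih5 at 3.74 and Ifi203 at 3.99 had 44.8 to 86.2% of their ligated UMIs in 1 cell. Nupr1, at -2.91, was seen in 77 ligated cells, and without clusters 6, 8 and 9 its ligated against mock difference in epithelial cells was -0.51 and did not pass.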

How the results depend on the processing

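Counts of called genes moved with most choices, while RLE size factors, at least 5 keratin UMIs and at least 1000 UMIs per cell left them within 1.5 times. Against 3 genes higher and 0 lower, 19 and 2 were called with no filter on low counts, 0 to 61 and 0 to 15 with 1 mock library left out (0 of either without mock 1), 0 and 0 with a term for the software version, 60 and 16 with mock 2 and 3 summed, 1 and 0 without the highest Scrublet scores, 13 and 5 by DESeq2, 167 and 31 without clusters 6, 8 and 9, and 70 and 7 with cells thinned to 500 UMIs. For the difference from endothelial cells, against 16 higher and 4 lower, the counts were 0 to 14 and 0 to 4 with 1 mock library left out, 84 and 13 with no filter, 24 and 2 with fibroblasts as the comparison, and 188 and 93 without clusters 6, 8 and 9. The cause was not tested. The share of epithelial cells in the ligated library over the mock mean was 0.810 with at least 5 keratin UMIs, 0.316 with at least 1000 UMIs per cell and 0.377 with cells thinned to 2000 UMIs, and 0.474 to 0.6 with 1 mock library left out, against 0.534. With the version as a term, 5 genes turned from lower to higher on the log2 scale: Klk1b26 (0.40), Klk1b5 (0.33), Mucl2 (0.50), Prol1 (1.58) and Ascl3 (0.91). Against mock 1 alone they stood at 0.39, 0.32, 0.50, 1.57 and 0.75. Of 23 list medians, 6 changed sign without clusters 6, 8 and 9, 5 without mock 1 and at most 4 under each other setting. No paired analysis was possible because 1 ligated library shares only 1 replicate number with the mock libraries. The members' depth limits what can be seen: cells thinned to 2000 UMIs leave 30 ligated and 24 mock 1 cells.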
